A study of Mus musculus with 12 samples.

Results

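The genes that build, cross-link and cut the extracellular matrix were followed in the stomach and colon of mice with and without Spdef. They were chosen by symbol alone, as every gene of the array's annotation named as a collagen chain, a laminin chain, a fibulin or fibrillin, a lysyl oxidase, a tissue inhibitor of metalloproteinases (Timp) or a matrix metalloproteinase (Mmp), with Mmp7 left out. The rule found 67 of 11807 genes, and 1 probe set stood for each, the brightest on average over the 12 arrays. RNA came from stomach or colon of 16 week old C57BL/6 mice of 3 Spdef genotypes, wild type (WT), heterozygous (HET) and knockout (KO), with 2 arrays in each of the 6 groups. The labels do not describe the targeted allele or the sex of the animals. Nor do they state that the arrays of a group represent separate animals, and p-values below therefore measure the spread between these samples, which may be technical. RNA of a whole tissue sample is a mixture, and fewer cells of a type and less RNA per cell cannot be told apart.

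Under the epithelium and around muscle and vessels, the matrix of the gut wall is a basement membrane, a sheet of laminins and a collagen IV network, and in the connective tissue it is a mesh of fibrillar collagens, beaded collagen VI filaments and elastic fibres, made mainly by fibroblasts and smooth muscle. Lysyl oxidases cross-link collagen and elastin, metalloproteinases cut matrix proteins and Timps block those enzymes. SPDEF, a transcription factor with an ETS domain, acts in the maturation of goblet cells and of other epithelial cells that make mucus, and it binds DNA at a GGAT core, preferably as CCGGAT.

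All levels are log2(intensity + 16) after quantile normalization over the 12 arrays, which understates the differences of dim genes. The precision is limited by the number of arrays. A gene was tested in a tissue where at least 2 of its 6 arrays reached a filter level of 6.53, the 40th percentile of all probe sets (an intensity of 76.5). The threshold was an adjusted p of 0.05 in limma with Benjamini-Hochberg adjustment over all genes tested, and a gene is said to be called when it passed. Levels of different probe sets are not compared. Markers set the stomach arrays apart from all colon arrays, but 1 colon array went against its label. The mean level of the 4 parietal and chief cell markers was 13.95 to 14.11 in stomach and 4.88 to 5.37 in colon. The array labelled colon WT 2 stood apart from the other colon arrays. Its mean correlation with them over all genes was 0.875, against 0.923 to 0.951 for the other colon arrays. The mean of 4 small intestine markers was 13.75 in it and 7.29 to 8.56 in the other 5, and the mean of 4 colonocyte markers was 9.26 in it and 12.33 to 13.47 in the other 5. Its markers thus go against the label colon, and it is called the array labelled colon WT 2, or colon WT 2 for short. The counts of calls that use it, and the values of named matrix genes whose call or sign it changed, are also given without it. Both stomach KO arrays and colon WT 1 carry another processing note (RMA) than the other 9 (MAS5), so in stomach the note and the KO genotype cannot be told apart. The deposited intensities of all 12 arrays had a 2% trimmed mean of 500.07 to 500.09. Which method made each column was not tested.

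Of the 67 genes, 34 passed the filter in stomach, 31 in colon and 35 in at least 1 tissue. The other 32 were too dim to test. Of these, 26 lay below the filter level on every array and 6 reached it on no more than 1 array of a tissue. The dim genes were spread over the classes: 3 of 8 fibrillar collagens, 1 of 6 collagen IV chains, none of 3 collagen VI chains, 10 of 15 other collagens, 2 of 8 laminins, 2 of 4 fibulins and fibrillins, 2 of 5 lysyl oxidases, 1 of 3 Timps and 11 of 15 metalloproteinases. The cartilage collagens Col2a1, Col9a1, Col9a2, Col9a3, Col10a1, Col11a1 and Col11a2 were all among them. So were Timp1 and the secreted proteases Mmp3, Mmp8, Mmp9, Mmp10, Mmp12 and Mmp13, which are known from injured or inflamed tissue. Mmp10 reached 8.53 in the array labelled colon WT 2, where its next highest reading on any array was 6.10. Mmp12, the macrophage metalloelastase, reached 6.94 in colon KO 2, with 6.40 as the next highest. These 32 genes are described by these readings alone.

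**Figure D1:**
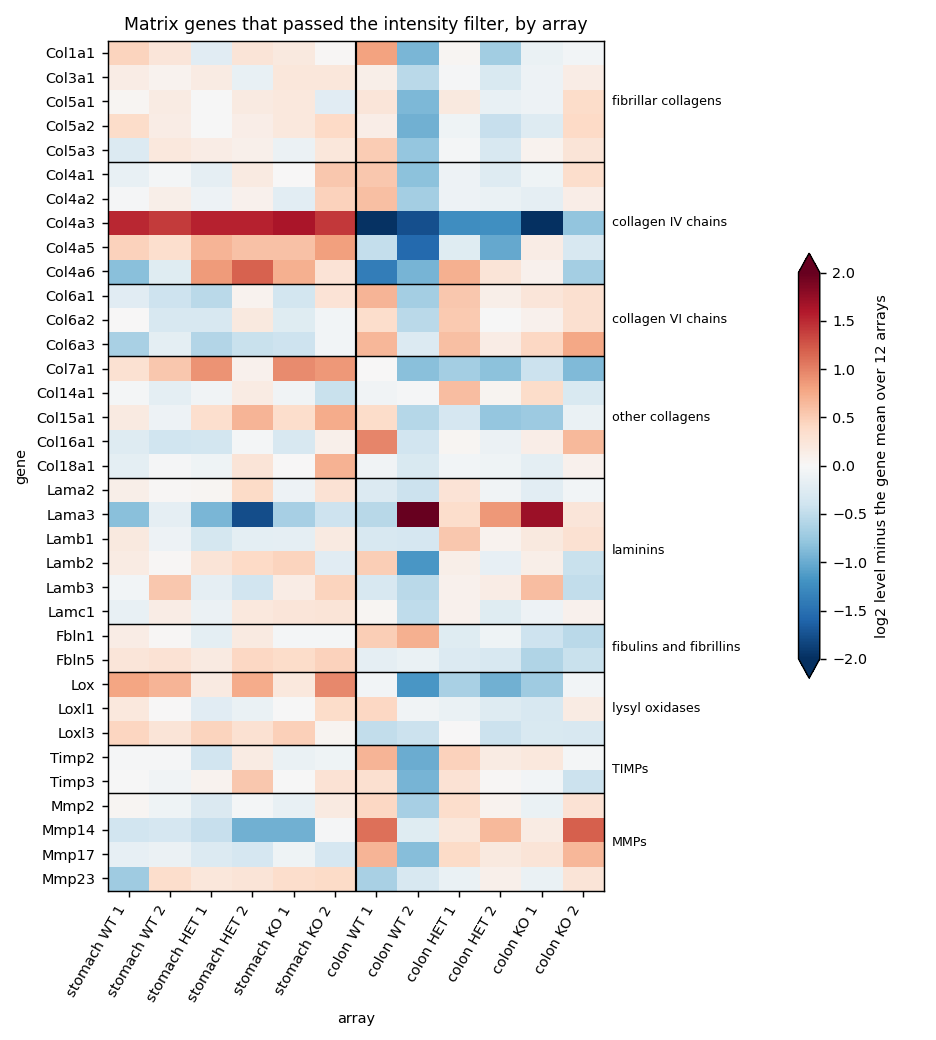
Levels of the 35 matrix genes that passed the filter in at least 1 tissue (rows, grouped by role) on each of the 12 arrays (columns), as the log2 level minus the gene's own mean over all arrays; red is above and blue below that mean. Col4a3 is the row with the sharpest break between the tissues (7.58 to 7.81 in stomach, 4.14 to 5.39 in colon), and the column of colon WT 2 is blue for most rows.

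Fbln1, which encodes fibulin-1, a secreted glycoprotein that binds fibronectin, laminin and elastic fibres, lies on chromosome 15 at 85205949-85286294 (GRCm38.p6). The 250 bases before its start are shown because Fbln1 had the smallest p-values of the group between colon genotypes. Capitals mark each GGAT core on either strand (GGAT or ATCC). The window, chr15:85205699-85205948 on the plus strand of the RefSeq table for GRCm38.p6, held 2 such matches and no CCGGAT.
Fbln1: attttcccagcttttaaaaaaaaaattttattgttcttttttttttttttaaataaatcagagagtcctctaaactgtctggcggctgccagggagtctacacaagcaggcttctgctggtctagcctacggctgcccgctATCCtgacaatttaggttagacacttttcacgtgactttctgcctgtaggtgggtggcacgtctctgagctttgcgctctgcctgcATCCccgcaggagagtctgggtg
RefSeq promoter sequences were found for 46 of the 67 genes. In windows of 250 bases before the start, searched on both strands, GGAT was present in at least 1 window of 33 of these 46 genes, and in 74.1% of the 32851 windows of all genes. CCGGAT was present in 1 of the 46 genes, Loxl4, and in 4.94% of all windows. A match is a run of letters and says nothing about binding.

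Over all genotypes Fbln1 was not called between the tissues by this probe set, with 9.40 ± 0.14 (SD, n = 6) in stomach and 9.37 ± 0.51 (SD, n = 6) in colon (difference -0.03, SE 0.10, limma adjusted p = 0.837). In stomach it read 9.53 and 9.41 in WT, 9.19 and 9.57 in HET and 9.34 and 9.35 in KO. In colon it read 9.87 and 10.10 in WT, 9.14 and 9.30 in HET and 8.97 and 8.85 in KO. The colon groups did not overlap and were ordered WT, HET, KO, while the stomach arrays all lay between 9.19 and 9.57, with the HET arrays around the others. In colon, KO minus WT was -1.08 (SE 0.17, limma adjusted p = 0.136) and HET minus WT was -0.77 (SE 0.17, adjusted p = 0.366), and neither was called. The KO minus HET difference was -0.31 (SE 0.17, adjusted p = 0.9984). KO and HET share the WT arrays, so these values are not independent of each other. Markers of other cell types also differed between these arrays. The mean of 3 mesothelium markers read 7.35 and 7.87 in colon WT, 7.16 and 6.43 in HET and 6.91 and 5.70 in KO, and 1 of the 3 lay below the filter level in both tissues. That of 4 adipose markers read 10.15 and 10.38 in WT, 10.12 and 10.42 in HET and 9.50 and 7.37 in KO. Both means were lowest in colon KO 2, and none of these markers that was tested was called in KO against WT. The mean of 6 fibroblast markers other than Fbln1 did not follow the order WT, HET, KO. It read 9.41 and 8.91 in colon WT, 9.51 and 9.19 in HET and 9.37 and 8.89 in KO. The part of these cells in the Fbln1 readings was not tested.

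Here the array labelled colon WT 2 read with colon WT 1, not apart from it. Without colon WT 2 the KO minus WT difference was -0.96 (limma adjusted p = 0.119) and the HET minus WT difference -0.66 (adjusted p = 0.345). Without colon WT 1 they were -1.19 (adjusted p = 0.00506) and -0.89 (adjusted p = 0.0174), both called, with colon WT 2 then the only WT array. The KO minus WT difference in colon minus that in stomach was -0.95 (SE 0.24, adjusted p = 0.888), -1.06 (adjusted p = 0.0480) without colon WT 1 and -0.83 (adjusted p = 0.530) without colon WT 2. The other Fbln1 probe set gave another picture. It read 8.22 and 8.91 in colon WT, 7.87 and 8.0 in colon HET and 7.63 and 8.90 in colon KO. Its KO and WT arrays overlapped, its KO minus WT difference was -0.30, and its KO minus HET difference of 0.33 was opposite in sign. Between the tissues this probe set lay at 9.30 ± 0.28 (SD, n = 6) in stomach and 8.25 ± 0.54 (SD, n = 6) in colon, and fell by 1.04 (SE 0.23, limma adjusted p = 0.00440) when every probe set was tested. The probe set used showed no such difference, and which transcripts each probe set reads was not tested.

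Fbln5, which encodes fibulin-5, a protein that organizes elastic fibres, was read by a single probe set. In stomach it read 8.64 and 8.68 in WT, 8.58 and 8.81 in HET and 8.77 and 8.86 in KO. In colon it read 8.21 and 8.27 in WT, 8.13 and 8.08 in HET and 7.79 and 7.95 in KO. Every colon array lay below every stomach array. The colon minus stomach difference was -0.65 (SE 0.09, limma adjusted p = 0.000237), a 1.57-fold lower level in colon. Within the colon the KO arrays were the lowest, and the KO minus WT difference of -0.37 (SE 0.15, adjusted p = 0.421) was not called.

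**Figure D2:**
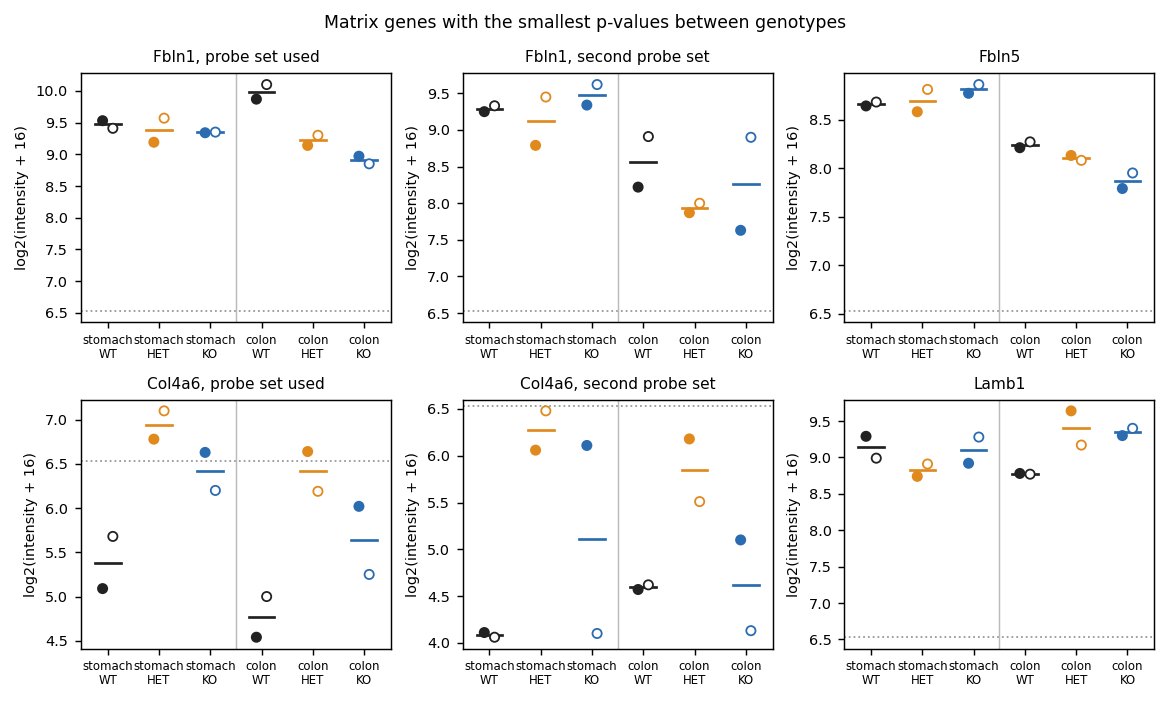
Log2 levels of Fbln1, Fbln5, Col4a6 and Lamb1 on each array, by tissue and genotype, with both probe sets for Fbln1 and Col4a6. Filled points are replicate 1, open points replicate 2, bars group means, and the dotted line the filter level of 6.53. The probe set used for Fbln1 shows colon WT above HET and HET above KO, while in the other Fbln1 probe set colon KO 2 (8.90) lies at the level of colon WT 2 (8.91).

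Between the tissues, over all 3 genotypes, 11 of the 35 tested genes were called (31.4%), against 48.8% of the 8393 genes tested. Of the 11, 3 were higher in colon (21.4% of all genes were) and 8 were lower (27.3% of all genes were). With all 12 arrays the members' share was thus below the background. The median difference was -0.17 over the 35 genes and -0.05 over all genes, and 11 of the 35 differences were positive. This depended on the array labelled colon WT 2. Without it the median was -0.06 over the 35 genes and -0.05 over all genes, and 16 of the 35 were positive. In 6 of the 11 every colon array lay below every stomach array, 17.1% of the 35 against 17.7% of all genes tested. No gene of the group lay above in every colon array, against 12.3% of all genes. That count includes the array labelled colon WT 2. On the other colon arrays Mmp14 (from 7.78) and Col6a3 (from 9.78) lay above every stomach array (up to 7.59 and 9.58). So did Mmp17 (from 6.21, against up to 5.93), which passed the filter through colon alone. The share of all genes without that array was not counted. Of the 11 genes, 7 passed the filter in both tissues. The other 4 (Col4a3, Col7a1, Loxl3 and Col4a6) passed through stomach alone, so a lower level in colon was built into their selection. Their differences are given as lower bounds against the filter level where 1 mean lay below it. No call or p-value of these 4 genes between the tissues is read as a result.

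**Figure D3:**
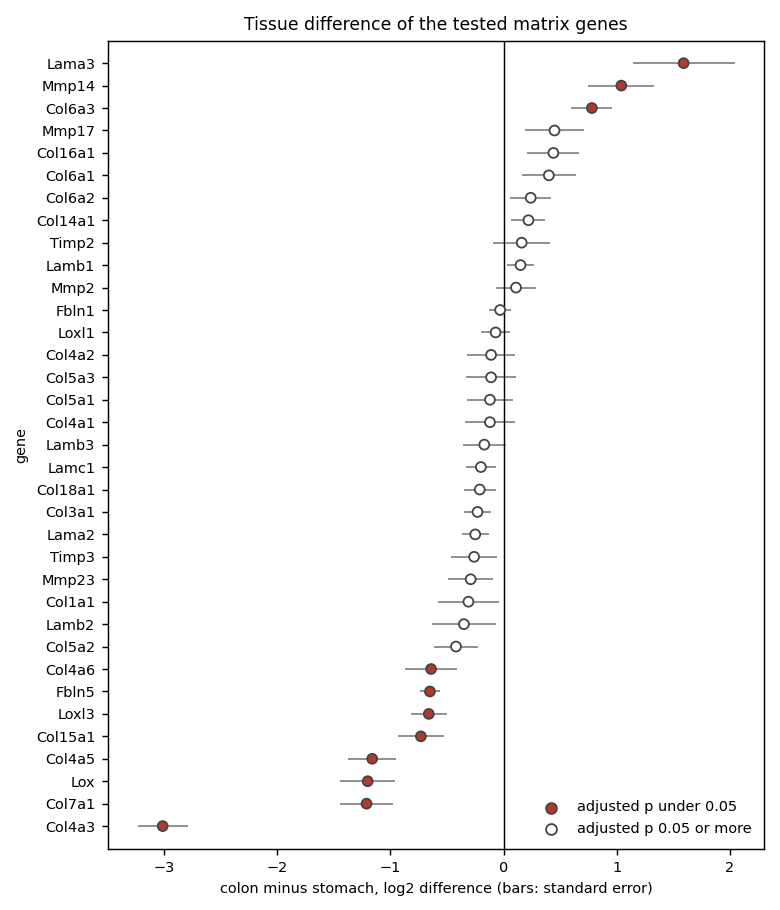
Colon minus stomach differences (log2, points) with standard errors (bars) of the 35 tested matrix genes, from the fit over all 12 arrays, sorted by size. Filled points are the 11 genes called in limma. Col4a3 has a fitted value of -3.01 against colon readings below the filter level (bound 1.16), and Lama3 (1.59), Mmp14 (1.04) and Col6a3 (0.78) are the 3 called genes to the right of 0.

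Collagen IV chains form the network of basement membranes. Chains of Col4a1 and Col4a2 form the network found in most basement membranes, those of Col4a3, Col4a4 and Col4a5 assemble with each other in specialised ones, and Col4a5 also assembles with Col4a6. The genes lie in head-to-head pairs. In GRCm38.p6, Col4a3 (chromosome 1, 82586921-82722059) overlaps Col4a4 by 114 bases, Col4a1 overlaps Col4a2 on chromosome 8 by 85 bases, and Col4a5 (chromosome X, 141475370-141689236) starts 1274 bases from Col4a6 (chromosome X, 141165403-141474095). Of the 6, 5 were tested. Col4a5, which passed the filter in both tissues, was called lower in colon. So were Col4a3 and Col4a6, which passed through stomach alone and for which no count, call or p-value is read as a result. Among all genes tested 27.3% were called lower. Col4a3 read from 7.58 to 7.81 in stomach (median 7.70) and from 4.14 to 5.39 in colon (median 4.69). All 6 colon arrays lay below the filter level and all 6 stomach arrays above it. The bound on the difference of Col4a3 was at least 1.16, or 2.23-fold (fitted difference -3.01, SE 0.22).

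Col4a4, its neighbour, was below the filter level on every array and was not tested. It read 5.05 to 6.12 in stomach and 4.11 to 5.47 in colon, ranges that overlap. Col4a5 read from 9.62 to 10.09 in stomach (median 9.87) and from 7.72 to 9.42 in colon (median 8.88). The tissues did not overlap, and the difference was -1.16 (SE 0.21, limma adjusted p = 0.00142), or -0.98 (adjusted p = 0.000653) without colon WT 2, its lowest array. The other Col4a5 probe set gave -0.71. Col4a1 and Col4a2 were not called. Col4a1 lay at 10.70 ± 0.27 (SD, n = 6) in stomach and 10.58 ± 0.48 (SD, n = 6) in colon (difference -0.12, SE 0.22, limma adjusted p = 0.680). Col4a2 lay at 9.80 ± 0.23 (SD, n = 6) and 9.69 ± 0.42 (SD, n = 6) (difference -0.11, SE 0.21, adjusted p = 0.681). They were at 0.11 (adjusted p = 0.519) and 0.10 (adjusted p = 0.549) without colon WT 2. Whether Col4a5 differed between tissues by more than Col4a1 and Col4a2 was not tested.

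**Figure D4:**
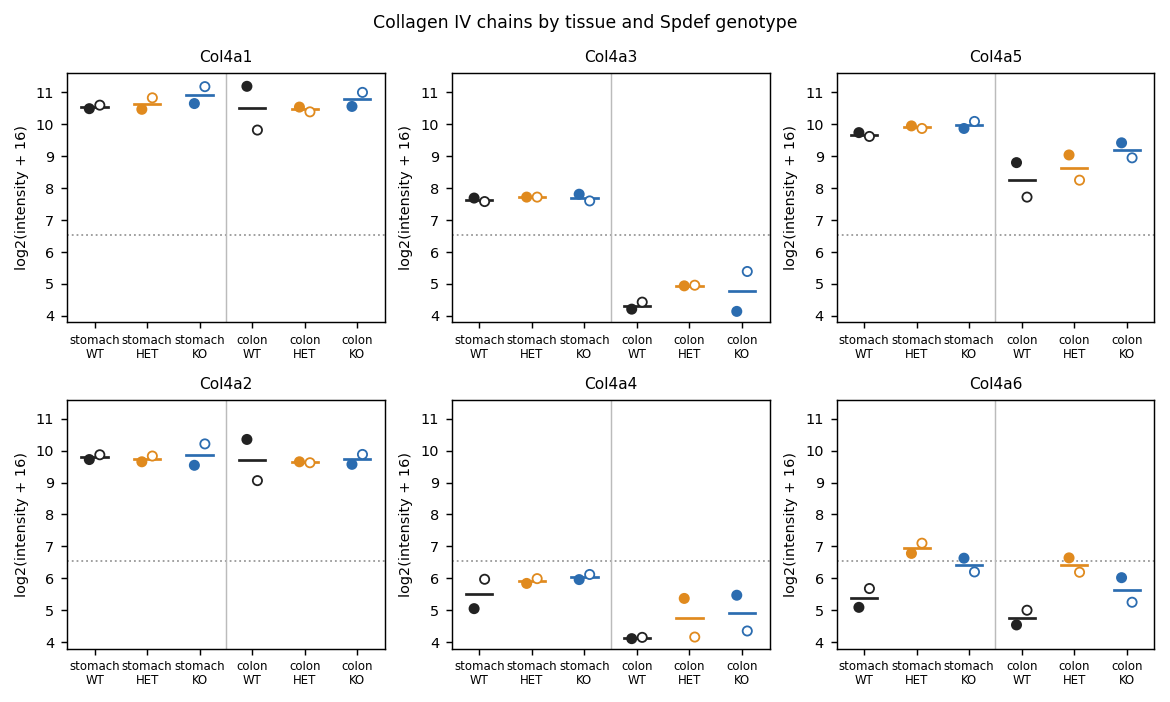
Log2 levels of the 6 collagen IV chains on each array, with neighbouring genes of the genome in 1 column, by tissue and genotype. Filled points are replicate 1, open points replicate 2, bars group means, and the dotted line is the filter level of 6.53. Col4a3 reads from 7.58 to 7.81 in stomach and lies below the filter level in colon (4.14 to 5.39), Col4a1 and Col4a2 overlap between tissues, and the WT points of Col4a6 lie below the HET points within each tissue.

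Col4a6 was near the filter level throughout. It read 5.09 and 5.68 in stomach WT, 6.78 and 7.10 in stomach HET and 6.63 and 6.20 in stomach KO. In colon it read 4.54 and 5.0 in WT, 6.64 and 6.19 in HET and 6.02 and 5.25 in KO. In each tissue both WT arrays lay below all 4 arrays of the carriers of the targeted allele (HET and KO). The stomach HET minus WT difference was at least 0.41 (fitted 1.55, SE 0.40, limma adjusted p = 1.0), and the stomach KO minus WT difference was 1.03 (SE 0.40, adjusted p = 0.9995) with both means below the filter level. Col4a6 did not pass the filter in colon, and in stomach only HET 1, HET 2 and KO 1 reached the filter level. A higher level in carriers was thus built into its selection. No p-value or call of Col4a6 for carriers against WT, here or below, is read as a result. The carriers minus WT difference over both tissues, a comparison added after these values were seen, was 1.27 (SE 0.25, adjusted p = 0.206), also with both means below the filter level, and was called only without colon WT 1 (1.16, adjusted p = 0.0330). The other Col4a6 probe set gave 2.19, 1.02 and 1.12 for these 3 differences. It did not place WT below all carriers in either tissue. Stomach KO 2 (4.10) lay between the WT arrays (4.11 and 4.06), and colon KO 2 (4.13) lay below both (4.57 and 4.62). The HET arrays and KO 1 lay above WT in each tissue. The 12 readings of this probe set all lay below the filter level. The tissue difference of Col4a6 was -0.64 (SE 0.23, limma adjusted p = 0.0453), with overlapping arrays and both means below the filter level. Without colon WT 1 it was -0.56 (adjusted p = 0.0791), and the call was lost too without each of stomach WT 2, HET 1, HET 2, KO 1 and KO 2 and without each of colon HET 1, HET 2 and KO 2.

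The bases before the starts of Col4a5 and Col4a6 are shown because Col4a5 was the chain tested in both tissues that was called lower in colon, and Col4a6 is the neighbour that faces away from it. Neither window held a GGAT core, so neither has capitals. The windows are chrX:141475169-141475369 on the plus strand for Col4a5 and chrX:141474096-141474326 on the minus strand for Col4a6, from the RefSeq table for GRCm38.p6.
Col4a5: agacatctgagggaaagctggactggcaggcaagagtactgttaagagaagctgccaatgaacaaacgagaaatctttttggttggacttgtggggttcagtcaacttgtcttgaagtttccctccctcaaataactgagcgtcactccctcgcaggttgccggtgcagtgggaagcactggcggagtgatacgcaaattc
Col4a6: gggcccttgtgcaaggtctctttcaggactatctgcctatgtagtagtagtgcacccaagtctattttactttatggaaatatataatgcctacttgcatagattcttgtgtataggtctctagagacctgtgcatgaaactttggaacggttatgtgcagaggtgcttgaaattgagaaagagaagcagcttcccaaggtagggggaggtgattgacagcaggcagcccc

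The fibrillar collagens, which give tensile strength, did not differ by call between the tissues over all arrays. The 5 tested differences were all negative with every array (median -0.23), and 2 of the 5 were positive without colon WT 2 (median -0.02). Col3a1, a chain of the extensible connective tissue of gut and vessel, lay at 13.36 ± 0.14 (SD, n = 6) in stomach and 13.13 ± 0.26 (SD, n = 6) in colon (difference -0.23, SE 0.12, limma adjusted p = 0.137). Col1a1, a chain of the main fibrillar collagen, lay at 9.98 ± 0.23 (SD, n = 6) and 9.67 ± 0.61 (SD, n = 6) (difference -0.31, SE 0.27, adjusted p = 0.366). Col5a2, which helps to set fibril width, differed by -0.42 (SE 0.19, adjusted p = 0.102), and its other probe set by -0.82 (adjusted p = 0.00759) when every probe set was tested. Col5a1 and Col5a3 were at -0.12 and -0.11, and at 0.08 and 0.11 without colon WT 2. In Col1a1 the colon arrays ran from 8.91, in the array labelled colon WT 2, to 10.63 in colon WT 1, so that the WT arrays alone spanned all the others. With colon WT 1 left out, where the other array carries the WT mean, Col1a1 (-0.60, adjusted p = 0.00820), Col3a1 (-0.34, adjusted p = 0.00768) and Col5a2 (-0.60, adjusted p = 0.00512) were called. With colon WT 2 left out instead, none was, with Col1a1 at -0.02 (adjusted p = 0.908), Col3a1 at -0.12 (adjusted p = 0.265) and Col5a2 at -0.24 (adjusted p = 0.177).

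Collagen VI, whose chains assemble into beaded filaments around cells, had the opposite sign. All 3 chains were tested and all 3 were positive, with a median of 0.40. Col6a3 read from 8.98 to 9.58 in stomach (median 9.20) and from 9.36 to 10.40 in colon (median 10.14), where the lowest colon reading was that of the array labelled colon WT 2. It was higher in colon by 0.78 (SE 0.18, limma adjusted p = 0.00645), or 1.71-fold. Col6a1 was at 0.40 (SE 0.24, adjusted p = 0.185) and Col6a2 at 0.24 (SE 0.18, adjusted p = 0.282). Without colon WT 2 all 3 chains were called, Col6a3 at 0.93 (adjusted p = 0.000444), Col6a1 at 0.63 (adjusted p = 0.00853) and Col6a2 at 0.39 (adjusted p = 0.0425).

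Of the other 15 collagens 5 were tested. Col15a1, which passed the filter in both tissues, was called lower in colon. So was Col7a1, which passed through stomach alone and for which no count, call or p-value is read as a result. Among all genes tested 27.3% were called lower. Col7a1, the anchoring fibril collagen that ties epithelium to the tissue under it, read from 6.08 to 6.94 in stomach (median 6.69) and from 5.10 to 6.00 in colon (median 5.24). The tissues did not overlap, but all colon arrays and 3 stomach arrays, WT 1, WT 2 and HET 2, lay below the filter level. The bound on its difference was at least 0.06 (fitted -1.21, SE 0.23, limma adjusted p = 0.00202). Col15a1, a collagen of the zone just outside basement membranes, read from 7.67 to 8.51 in stomach (median 8.11) and from 7.0 to 8.13 in colon (median 7.32), with colon WT 1 inside the stomach range. Its difference was -0.73 (SE 0.20, adjusted p = 0.0127). Col14a1 (0.22), Col16a1 (0.44) and Col18a1 (-0.21) were not called, and Col16a1 was called at 0.66 (adjusted p = 0.00752) without colon WT 2.

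Among the laminins, the cross-shaped trimers of basement membranes, 1 of 6 tested chains was called. Lama3, a chain of the laminin under epithelial cells, read from 6.09 to 7.67 in stomach (median 7.11) and from 7.31 to 10.01 in colon (median 8.47). The highest reading was that of the array labelled colon WT 2 and the lowest colon reading that of colon WT 1. Its difference was 1.59 (SE 0.45, limma adjusted p = 0.0158), and without colon WT 2 it was 1.15 (adjusted p = 0.00876). Lamb3, another chain of that laminin, was at -0.17 (SE 0.19, adjusted p = 0.475), with 10.13 ± 0.36 (SD, n = 6) in stomach and 9.96 ± 0.45 (SD, n = 6) in colon. Lama2 (-0.25), Lamb1 (0.15), Lamb2 (-0.35) and Lamc1 (-0.20) were not called. When every probe set was tested, another Lamb1 probe set was called higher in colon, by 0.60 (SE 0.11, limma adjusted p = 0.00195). It read from 7.34 to 7.61 in stomach and from 7.89 to 8.38 in colon. The third Lamb1 probe set gave 0.26 and was not called. Lamb2 was called at -0.62 (adjusted p = 0.0188) without colon WT 1 and was at -0.07 (adjusted p = 0.762) without colon WT 2, its lowest array at 5.64.

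Of the 3 tested cross-linking enzymes, Lox, which passed the filter in both tissues, was called lower in colon. So was Loxl3, which passed through stomach alone and for which no count, call or p-value is read as a result. Among all genes tested 27.3% were called lower. Lox read 8.20 and 8.09 in stomach WT, 7.59 and 8.15 in stomach HET and 7.62 and 8.37 in stomach KO. In colon it read 7.35 and 6.24 in WT, 6.75 and 6.45 in HET and 6.70 and 7.35 in KO. Every colon array lay below every stomach array. The difference was -1.20 (SE 0.24, limma adjusted p = 0.00250), a 2.30-fold lower level, and -1.01 (adjusted p = 0.00208) without colon WT 2. The other 2 Lox probe sets gave -0.43 and -0.60. Loxl3 read from 6.31 to 6.74 in stomach and from 5.76 to 6.27 in colon, all below the filter level in colon, with a bound of at least 0.05 (fitted -0.66, SE 0.16, adjusted p = 0.00816). Loxl1, which acts on elastin, was at -0.07 (SE 0.13, adjusted p = 0.680), and at 0.01 without colon WT 2.

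Of the remodelling genes, Mmp14, a membrane-bound collagenase that activates Mmp2, was the only metalloproteinase called. It read from 6.66 to 7.59 in stomach (median 7.19) and from 7.38 to 8.81 in colon (median 8.06), with the array labelled colon WT 2 as the only colon array inside the stomach range. It was higher in colon by 1.04 (SE 0.29, limma adjusted p = 0.0146), or 2.05-fold, and by 1.26 (adjusted p = 0.00195) without colon WT 2. Its other probe set gave 0.63. Mmp2, a gelatinase of stromal cells, lay at 8.96 ± 0.16 (SD, n = 6) in stomach and 9.07 ± 0.41 (SD, n = 6) in colon (difference 0.11, adjusted p = 0.636). Mmp17 was at 0.45, with both means below the filter level, and at 0.70 without colon WT 2. It passed the filter through colon alone, so a higher level there was built into its selection, and no call of it is read as a result. Mmp23 was at -0.29, or at least 0.13 below its stomach mean with the colon mean raised to the filter level, and was not called. Neither inhibitor was called over all arrays. Timp2 was at 0.16 (SE 0.25, adjusted p = 0.618) and at 0.44 (adjusted p = 0.0127) without colon WT 2, and 2 of its other 4 probe sets were called higher in colon when every probe set was tested, at 0.50 and 0.76. Timp3, which binds to the matrix itself, was at -0.26 (SE 0.20, adjusted p = 0.314) and at -0.47 (adjusted p = 0.0126) without colon WT 1, but at -0.06 (adjusted p = 0.734) without colon WT 2, its lowest array.

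The count of tissue calls moved with single arrays. It was 16 without colon WT 2, where 52.3% of all genes were called, with Col6a1, Col6a2, Col16a1, Mmp17 and Timp2 added. It was 15 without colon WT 1, where 54.2% were called, with Col1a1, Col3a1, Col5a2, Lamb2 and Timp3 added and Col4a6 lost. The genes added without colon WT 2 were all higher in colon, and those added without colon WT 1 were all lower. For Mmp17, which passed the filter through colon alone, the higher level was built into its selection. Within single genotypes 3 of 35 genes (8.57%) were called in each, against 27.3% of all genes in WT, 22.2% in HET and 22.9% in KO. Besides Col4a3, which passed through stomach alone, these were Col4a5 and Lox in WT, Col4a5 and Fbln5 in HET, and Col7a1 (also through stomach alone) and Fbln5 in KO. Cell type markers were read beside these values, and their part in the tissue differences was not tested. The mean level of 7 fibroblast markers was 8.97 to 9.18 in stomach and 8.89 to 9.48 in colon. That of 6 smooth muscle markers was 11.78 to 12.13 in stomach and 11.50 to 12.91 in colon. The 11.50 was that of colon WT 2, and the other colon arrays, at 12.23 to 12.91, all lay above every stomach array. The mean of 7 endothelial markers was 7.26 to 7.63 in stomach and 6.72 to 7.35 in colon, and that of 6 squamous epithelium markers was 4.95 to 10.02 and 4.51 to 5.09.

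Other genes of matrix assembly were read as lists by role. Of 13 tested genes of collagen synthesis and processing, 6 were called lower in colon and none higher, with a median of -0.30. Over all genes tested, 27.3% were called lower and 21.4% higher, with a median of -0.05, and every count in the lists below stands against these shares. P4ha2, a subunit of the prolyl hydroxylase that stabilises the collagen triple helix, lay at 9.63 ± 0.10 (SD, n = 6) in stomach and 7.07 ± 0.36 (SD, n = 6) in colon (difference -2.56, SE 0.11, limma adjusted p = 9.21e-08). Serpinh1, the collagen chaperone HSP47, lay at 10.98 ± 0.17 (SD, n = 6) and 9.62 ± 0.35 (SD, n = 6) (difference -1.36, SE 0.16, adjusted p = 0.000132). The other 4 were Ppib (-0.80), Plod2 (-0.62), Plod3 (-0.56) and P4hb (-0.38), which fold collagen or hydroxylate its lysines. Secretory epithelial cells also use Ppib and P4hb, and the cell source of these RNAs was not tested.

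Among 20 tested genes of elastic fibres and other glycoproteins, 5 were lower and 4 higher in colon, shares close to those of all genes. Elastin (Eln) lay at 8.61 ± 0.30 (SD, n = 6) in stomach and 7.37 ± 0.41 (SD, n = 6) in colon (difference -1.24, SE 0.21, limma adjusted p = 0.000995). The microfibril genes Mfap4 (-1.78, or -1.46 without colon WT 2, its lowest array at 5.64) and Mfap5 (-0.88) were lower too, as was Matn2 (-0.64). Vtn, which encodes vitronectin, was called lower with a colon mean of 5.60, below the filter level, and a stomach mean of 8.71. The glycoproteins tenascin C (Tnc, 1.27), tenascin XB (Tnxb, 1.02), periostin (Postn, 0.99) and Emilin1 (0.36) were higher in colon. Of 12 proteoglycans, Ogn (-0.71) and Bgn (-0.60) were lower and none was higher. Of 12 matrix receptors 5 were higher, among them the hyaluronan receptor Cd44 (1.94, or 2.22 without colon WT 2, its lowest colon array at 8.12) and the collagen receptor subunit Itga2 (6.70 in colon, and 5.29, below the filter level, in stomach), and 2 were lower, Itgb5 (-1.06) and Dag1 (-0.48). Of 11 other proteases and inhibitors 2 were higher (Ctsl and Plat) and 3 lower (Adam10, Adam17 and Plaur), and none of 7 genes of the TGF-beta axis was called. Only 11 of the 12 receptors and 6 of the 7 TGF-beta genes passed the filter in stomach. In colon 19 of the 20 glycoproteins and 10 of the 11 proteases and inhibitors did. The direction of a gene that passed in 1 tissue alone was built into its selection. The calls of Vtn and Itga2, each with 1 mean below the filter level, are not read as results. When colon WT 2 was left out, 29.0% of all genes were called lower and 23.3% higher, and every call on the 6 lists was kept. The counts were then 6 lower and 1 higher of the 13 collagen processing genes, 5 and 7 of the 20 glycoproteins, 2 and 3 of the 12 proteoglycans, 3 and 5 of the 12 receptors, 3 and 3 of the 11 proteases and inhibitors and 0 and 1 of the 7 TGF-beta genes. Among those added were fibronectin (Fn1), Ecm1 and Sparcl1. Without colon WT 1 instead, not every call was kept. Emilin1 (0.29) and the receptor gene Itga9 (0.40) were lost, and the collagen processing genes Crtap (-0.36), Mia3 (-0.53) and Pcolce (-0.36) were among those added. With all arrays, none of the genes on these 6 lists was called in any of the 6 comparisons between genotypes.

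Between the genotypes no matrix gene was called in limma with all arrays. In stomach, 0 of 34 were called in KO against WT (0.0127% of all genes were), 0 in HET against WT (0.0% of all genes) and 0 in KO against HET (0.0127% of all genes). At an unadjusted p under 0.05 there were 1, 1 and 0 of the 34, against 280, 173 and 146 of the 7858 genes tested. The median KO minus WT difference was 0.07 over the 34 genes and 0.01 over all genes. The smallest p-values in KO against WT were those of Col4a6 (above), Col18a1 (0.46, SE 0.25), Mmp23 (at least 0.35) and Col15a1 (0.50, SE 0.34), each with a limma adjusted p of 0.9995. Col18a1 read 7.51 and 7.68 in stomach WT, 7.63 and 7.96 in HET and 7.71 and 8.40 in KO, so that KO 2 set most of the difference. For Mmp23 the difference rested on stomach WT 1 (5.80), and it was 0.01 without that array. In HET against WT the next genes after Col4a6 were the laminin chains Lamb3 (-0.52, SE 0.33) and Lamb1 (-0.32, SE 0.20) and Col15a1 (0.47, SE 0.34). In KO against HET they were Lamb3 (0.58, SE 0.33), Loxl1 (0.37, SE 0.23), Lamb1 (0.28, SE 0.20) and Col4a6 (lower by at least 0.41). Both other Lamb1 probe sets had the opposite sign in these 2 comparisons. Fbln1 was at -0.13 (SE 0.17) in KO against WT, -0.09 in HET against WT and -0.03 in KO against HET, and its other probe set had the opposite sign in KO against WT (0.19) and in KO against HET (0.36).

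Among stomach arrays, KO 2 gave the highest of the 6 readings in 17 of the 34 genes, against 25.9% of all genes tested in stomach, and HET 1 gave the lowest in 12 (35.3%), against 18.1% of all genes. The mean of the 6 squamous epithelium markers read 8.10 and 8.82 in WT, 10.02 and 6.58 in HET and 4.95 and 5.14 in KO, so that both KO arrays lay below the other 4. None of the 6 was called in KO against WT, with a median difference of -3.98. KO 1 gave the highest matrix reading in 6 of the 34 genes (17.6%). The part of squamous epithelium in the matrix readings was not tested.

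In colon, 0 of 31 genes were called in KO against WT (0.0505% of all genes were), 0 in HET against WT (0.0253% of all genes) and 0 in KO against HET (0.0253% of all genes). At an unadjusted p under 0.05 there were 4, 2 and 0 of the 31, against 886, 761 and 325 of the 7913 genes tested. After Fbln1, the smallest p-values in KO against WT were those of Lamb1, Col4a5 and Fbln5. Lamb1, a beta chain of widely made laminins, read 8.78 and 8.77 in colon WT, 9.64 and 9.17 in HET and 9.30 and 9.40 in KO. Both WT arrays lay below the other 4. The differences were 0.58 (SE 0.20, limma adjusted p = 0.403) for KO and 0.63 (SE 0.20, adjusted p = 0.471) for HET. By the probe set used, Lamb1 was steady to the choice of WT array, at 0.57 without colon WT 2 and 0.58 without colon WT 1 for KO. Both of its other probe sets were positive too, at 0.35 and 0.72 for KO and 0.20 and 0.99 for HET. The probe set with 0.72 and 0.99 was not steady. It read 6.38 in colon WT 1 and 5.35 in colon WT 2, 6.89 and 6.83 in HET and 6.74 and 6.43 in KO. In the probe set with 0.35 and 0.20, colon HET 2 (7.89) lay below both WT arrays (7.94 and 7.93).

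Col4a5 read 8.80 and 7.72 in colon WT, 9.04 and 8.25 in HET and 9.42 and 8.95 in KO. The KO minus WT difference was 0.93 (SE 0.36, limma adjusted p = 0.421), and it was 0.39 without colon WT 2 and 1.47 (adjusted p = 0.0156) without colon WT 1. In HET against WT the genes after Fbln1 and Lamb1 were Lama2 (0.46, SE 0.21) and Lamb3 (0.55, SE 0.33). In KO against HET, Fbln1 (-0.31) was followed by Fbln5 (-0.24), Col4a5 (0.55) and Col14a1 (-0.31), each with an adjusted p of 0.9984.

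The direction of the group as a whole in colon was set by which WT array was used. With both WT arrays, 26 of 31 genes had a positive KO minus WT difference, with a median of 0.23 against 0.06 over all genes. Without colon WT 2, 8 of 31 were positive and the median was -0.32 (0.02 over all genes). Without colon WT 1, 26 of 30 were positive and the median was 0.71 (0.11 over all genes). HET against WT gave the same turn. Its median was 0.16 with both arrays and 20 of 31 genes positive, -0.29 without colon WT 2 with 6 of 31 positive, and 0.58 without colon WT 1 with 26 of 30 positive. KO and HET share the WT arrays, so this is a single observation on WT and not 2. In KO against HET, which uses no WT array, the median was 0.09 against 0.02 over all genes, with 19 of 31 genes positive.

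The array labelled colon WT 2 gave the lowest of the 6 colon readings in 24 of the 31 genes (77.4%), against 34.1% of all genes tested in colon. Colon WT 1 gave the highest in 13 (41.9%), against 16.4% of all genes. Timp2 shows both. It read 10.58 in colon WT 1, 8.91 in colon WT 2 and from 9.86 to 10.37 in the HET and KO arrays. In the other direction, Lama3 was at 10.01 in the array labelled colon WT 2 and 7.31 in colon WT 1, with the HET and KO arrays from 8.10 to 9.57. Fbln1 also had its highest colon reading, 10.10, in colon WT 2. The smooth muscle markers stood at 11.50 in that array and 12.23 to 12.91 in the other 5, and the endothelial markers at 6.72 against 7.02 to 7.35, while the fibroblast markers stood at 9.08, within the 8.89 to 9.48 of the other 5. Fbln1 is itself among these markers. The mean of the other 6 was 8.91 in colon WT 2, where Dpt (10.63), Thy1 (7.42) and Cd34 (8.02) had their lowest colon readings, and 8.89 in colon KO 2. Dcn (12.20 in colon WT 2) and Lum (10.61) were lowest in colon KO 2, at 11.41 and 10.24. Pi16, below the filter level on every array, had its highest colon reading in colon WT 2 (4.57). None of the 6 smooth muscle markers, 1 of the 7 endothelial and 1 of the 7 fibroblast markers lay below the filter level in both tissues, and the part of these cells in the matrix readings was not tested.

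**Figure D5:**
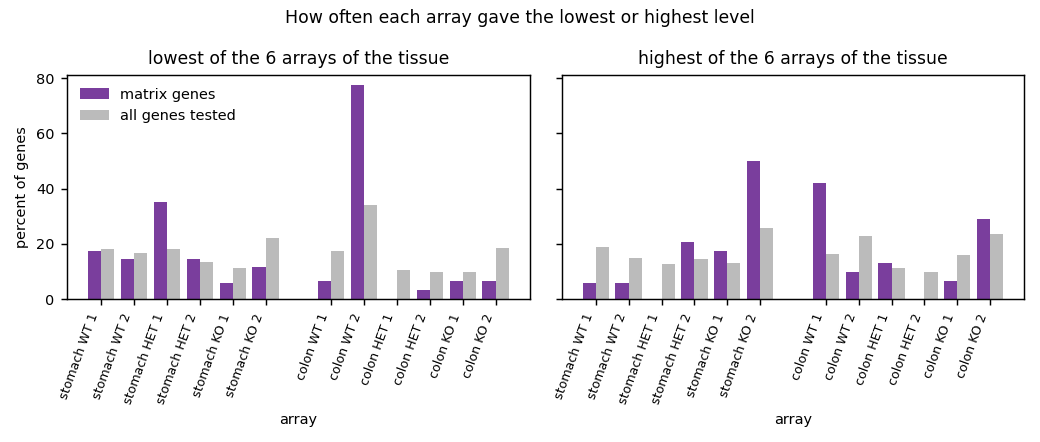
Percent of genes (y axis) for which each array (x axis) gave the lowest (left) or highest (right) of the 6 levels of its tissue, for the matrix genes (34 in stomach, 31 in colon) and for all genes tested. Colon WT 2 is lowest for 77.4% of the matrix genes against 34.1% of all genes, and colon WT 1 and stomach KO 2 are the arrays most often highest among the matrix genes (13 of 31 and 17 of 34).

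Calls against a single WT array followed the same split. Without colon WT 1, 6 of 30 genes were called in KO against WT, where 12.3% of all genes were. Fbln1 was lower, and Col4a5 (1.47), Timp2 (1.09), Col5a1 (1.03), Col5a2 (1.02) and Col4a1 (0.96) were higher, with limma adjusted p-values from 0.00506 to 0.0452. In HET against WT 5 were called, where 13.7% of all genes were. Fbln1 was lower again, and Timp2 (1.31), Timp3 (1.07), Col5a1 (0.93) and Mmp2 (0.87) were higher. Without colon WT 2, 0 of 31 were called in either comparison, where 0.307% and 0.0767% of all genes were, with 7 and 8 of the 31 at an unadjusted p under 0.05, against 967 and 718 of the 7825 genes tested. Of the genes named here, Fbln1 kept its sign without either WT array, and so did Col4a5 in KO, while Timp2 (-0.59 in KO), Col5a1 (-0.12), Col5a2 (-0.05) and Col4a1 (-0.42) turned negative in KO without colon WT 2. In HET without that array, Timp2 (-0.36), Timp3 (-0.16), Col5a1 (-0.22) and Mmp2 (-0.20) were negative too. With all arrays, every other Timp2 probe set had the opposite sign in colon KO minus WT, from -0.62 to -0.20, against 0.25 for the probe set used. In colon HET minus WT those probe sets were positive, from 0.17 to 0.61, as was the probe set used (0.48).

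The KO effect was compared between the tissues. None of the 35 genes was called for the KO minus WT difference in colon minus that in stomach, where 0.0238% of all genes were, and none for KO minus HET, where 0.0% were. At an unadjusted p under 0.05 there were 2 and 0 of the 35, against 389 and 183 of the 8393 genes. The 2 were Fbln1 (given above) and Fbln5, at -0.52 (SE 0.21, limma adjusted p = 0.888), both more negative in colon. For KO minus WT, 0 of 35 were called without colon WT 2 (0.108% of all genes) and 1 of 34, Fbln1, without colon WT 1 (4.7% of all genes). Lamb1 (0.62, SE 0.29) and Col15a1 (-0.83, SE 0.48) followed. For KO minus HET the values were -0.27 (SE 0.24) for Fbln1, -0.35 (SE 0.21) for Fbln5, -0.64 (SE 0.46) for Lamb3 and -0.33 (SE 0.29) for Lamb1. Over both tissues, 0 of 35 genes were called between carriers of the targeted allele and WT, where 0.0715% of all genes were, with 3 of the 35 at an unadjusted p under 0.05. These were Col4a6 (1.27, above), which passed the filter through carriers alone, Fbln1 (-0.52, SE 0.10, limma adjusted p = 0.224) and Mmp23 (at least 0.15). Col4a5 (0.46, SE 0.22) came next. Without colon WT 1, 5 of 34 were called, where 8.65% of all genes were. These were Fbln1 at -0.57 (limma adjusted p = 0.0149), Col4a5 at 0.73 (adjusted p = 0.0364), Col4a6, Timp2 and Timp3. Without colon WT 2, 0 of 35 were called, where 0.108% of all genes were, and the median over the 35 genes was -0.10 against 0.14 with all arrays. Fbln1 was then at -0.46 (adjusted p = 0.237) and Col4a5 at 0.19 (adjusted p = 0.758). In colon the WT and carrier arrays of Fbln1 did not overlap, and in stomach they did.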

How the data were processed

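RNA of the 12 samples was hybridised to Affymetrix HT Mouse Genome arrays. The authors deposited a linear intensity per probe set, with MAS5 named for 9 arrays and RMA for 3, per the submitters' processing notes, and no version or build is given in the sources used here. Control probe sets (90 of 22716) were left out. Symbols came from the platform annotation, updated through gene identifiers. Positions and promoters came from RefSeq tables of GRCm38.p6. The deposited intensity was taken to log2(intensity + 16), quantile normalized and modelled in limma 3.58.1 (R 4.3.3) by 1 mean per group with an intensity trend (residual degrees of freedom 6, prior 3.29). The Benjamini-Hochberg adjustment ran over all genes that passed the filter in a tissue, or in either tissue for comparisons between tissues. The pipeline was tested on simulated data. Tables and figures were made with Python 3.11.15, pandas 2.3.3 and matplotlib 3.10.9.

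The matrix genes, their role classes and the marker and pathway lists were chosen with earlier results of these data known. Named genes were Fbln1, the 4 with the smallest p in each genotype comparison, and, between tissues, called genes without overlap, up to 4 in a class. Levels are also given for the 3 brightest of each class, and some genes were named after their values were seen, among them those called without 1 array, and the pathway genes. Alternatives were another offset (1 or 64), leaving out the quantile normalization, the filter or the trend, a filter at the median of the arrays, each tissue alone, each genotype alone, every probe set, the replicate block and leaving out each array. The comparison of carriers with WT was added after the data were seen.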

Additional observations from a re-analysis of the deposited data

Results flagged for a closer look

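Each of the 65 sets of 6 readings, 1 for each tested matrix gene and tissue, was checked for a single array far from the others, a check that chance alone passes in about 1 of 20 sets. It picked out 2 of them. Mmp23, a membrane-anchored metalloproteinase, read 5.80 in stomach WT 1 against 6.75 to 6.90 in the other stomach arrays, so its KO minus WT difference of 0.55 in stomach was 0.01 without that array. Mmp17, another membrane-bound metalloproteinase, had readings of 6.21 to 6.70 on 5 colon arrays and of 5.17 on the remaining one, that labelled colon WT 2. No matrix gene was called for a difference in the KO effect between the tissues.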

How the results depend on the processing

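The labels give the groups the same replicate numbers. Between groups, the deviations of same-numbered arrays from their group means correlated at -0.32 to 0.29, so the numbers were not taken to pair samples. With the replicate number as a block, 10 genes were called between tissues and 0 in each genotype comparison. The tissue count was 3 in WT groups, 3 in HET groups and 3 in KO groups alone, and 10 to 16 with any 1 array left out. Leaving out 1 array at a time gave 0 to 6 calls for colon KO against WT, 0 to 5 for colon HET against WT, 0 to 1 for the KO effect between tissues and 0 to 5 for carriers against WT. Each highest value came without colon WT 1. The tissue count was 16 with no filter and 15 when every probe set was tested. The Fbln1 tissue difference turned to 0.00 without quantile normalization, to 0.51 in WT groups alone, and ran from -0.09 to 0.04 with any 1 array left out. Fbln1 in stomach ran from -0.29 to 0.10 for HET against WT and from -0.23 to 0.16 for KO against HET, and Col14a1 in colon KO against HET from -0.65 to 0.03. The cause of these turns was not tested.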
